A study of Mus musculus with 2 samples.

Results

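The genes described here are 10 components of the Notch pathway: the receptors Notch1, Notch2, Notch3 and Notch4, the ligands Jag1, Jag2 and Dll1, and the target genes Hes1, Hey1 and Heyl. They were chosen by name, with earlier results of these data known. Every probe set (a set of short oligonucleotides that reads 1 transcript) whose platform annotation gives exactly 1 of these symbols was taken, which gave 20 of the 34958 single-symbol probe sets and 10 of 18194 genes. All 10 genes had at least 1 such probe set.

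RNA was profiled on Affymetrix Mouse Genome 430 2.0 arrays from osteoblastic cells of the tibia and femur of C57Bl/6 E18.5 embryos. The Ebf2+/- group (heterozygous) and the Ebf2-/- group (knockout) had 1 array each, and both carry a lacZ marker in Ebf2, the gene of an early B cell factor transcription factor. Cells of both groups were loaded with FDG, a substrate that turns fluorescent where lacZ is active, sorted by flow cytometry and expanded in culture without passage. Per the labels each genotype had 3 mice; pooling of their RNA is not stated. A wild-type array is not among the samples used here. Since the sort keeps cells with an active Ebf2 locus and the control cells lack 1 copy of the gene, the comparison is between heterozygous and null cells of this sorted fraction. With 1 array per genotype no difference has a replicate check, no p-value was computed, and each value below is a single measurement.

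Notch receptors are single-pass membrane proteins that are cut when a Jagged or Delta-like ligand on a neighbouring cell binds them. The freed intracellular domain enters the nucleus, joins the DNA-binding protein RBPJ and its co-activators, and switches on genes of the Hes and Hey families, which encode repressors of the basic helix-loop-helix class. In bone, Notch signalling is known for holding mesenchymal progenitors back from osteoblast differentiation, and Jag1 on osteoblastic cells has been tied to the support of haematopoietic stem cells.

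Of the 10 genes, 6 were above background and all 6 had the higher signal on the knockout array: Notch1, Notch2, Notch3, Jag1, Hes1 and Hey1. Their ratios were modest, from 1.29-fold for Notch2 to 2.01-fold for Notch3, so that only Notch3 passed 2-fold, the reference size used here, and 0 were 2-fold lower. Notch4, Jag2, Dll1 and Heyl were under background on both arrays by all of their probe sets. Background, called the floor below, was the 95th percentile of 86 sensory receptor probe sets (olfactory, vomeronasal, taste), genes not known from bone; it was 17.8 for the heterozygote array and 23.8 for the knockout array. The median log2 ratio of the 6 genes was 0.67, beside -0.01 over all measured genes.

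These counts are read against all 11785 genes above the floor on at least 1 array. A higher knockout signal was seen for 46.9% of those genes, where 609 genes too dim for a fold count as not higher. Past 2-fold upward were 6.3%, and past 2-fold downward 3.46%. The share at 2-fold among the Notch genes, 1 of 6, rests on 1 gene and is no result about the group. In spike-in scaling, the knockout array was rescaled so that 18 spike-in control probe sets matched the heterozygote array in average log2 signal. Then 528 genes passed 2-fold upward and 625 downward, in place of 742 and 408. The 6 Notch genes were still higher in the knockout, but Notch3 was then under 2-fold. Whether this scaling corrects for RNA amount was not tested. Where a gene had several probe sets above both floors, their log2 ratios scattered with an SD of 0.44 (pooled, 4119 genes), or 1.36-fold, which holds no variation between mice or between cultures. Notch2 was within this factor, and Notch1 and Jag1 were only just outside it.

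**Figure D1:**
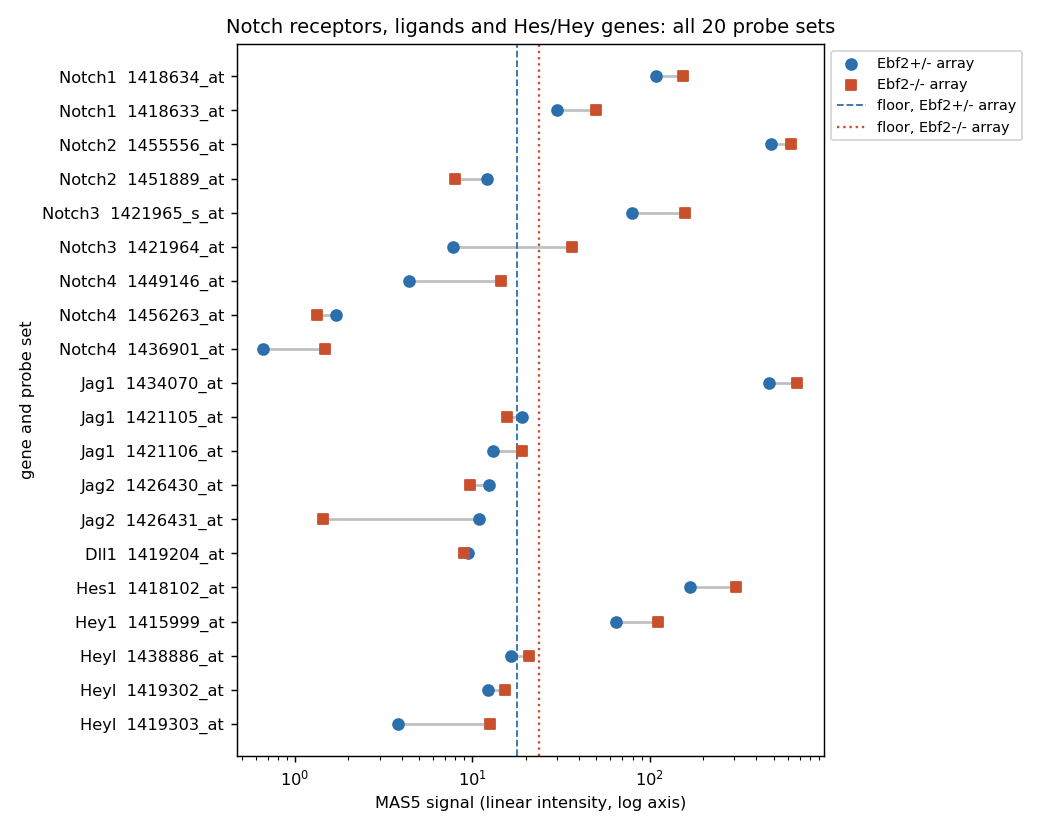
Signal of each of the 20 probe sets of the Notch receptors, ligands and Hes/Hey genes on the Ebf2+/- array (circles) and the Ebf2-/- array (squares); the x axis is the MAS5 signal on a log scale, and the dashed and dotted lines are the floors of 17.8 and 23.8. The 7 probe sets to the right of both floors on both arrays have the square to the right of the circle.

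Of the 4 receptors, 3 were above background. Notch1, a receptor used in many lineages, read 109 on the heterozygote array and 154 on that of the knockout by its brighter probe set (1418634_at), a 1.41-fold higher signal (log2 ratio 0.50). Its other probe set (1418633_at) read 30.0 and 49.96, or 1.66-fold higher. Both probe sets of Notch1 therefore had the knockout array on the high side, at similar ratios.

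Notch2, the receptor whose gain of function causes the bone loss of Hajdu-Cheney syndrome in people, read 483 and 625 by probe set 1455556_at, which is 1.29-fold higher in the knockout (log2 ratio 0.37). Its other probe set (1451889_at) read 12.0 and 8.02, under the floor on both arrays. Notch2 thus rests on 1 probe set, and a mean over both, with the dim one counted in full, turned the sign (log2 ratio -0.11).

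Notch3, a receptor best known from pericytes and vascular smooth muscle, had the largest ratio among the 6 measured genes. Its signal was 79.2 in heterozygous and 159 in knockout cells (1421965_s_at), 2.01-fold higher with a log2 ratio of 1.01. Its second probe set (1421964_at) read 7.80 and 36.5, so only its knockout value was above the floor, and the ratio was at least 2.05-fold. The probe set of higher signal ends in _s_at, which the maker uses for sets that can read more than 1 transcript, whereas the second does not. By the first probe set Notch3 lay just past 2-fold, with 93.4% of measured genes with a fold at a lower ratio, and the second gives only a lower bound. The log2 ratio of Notch3 fell short of 2-fold with a pseudocount of 50 (0.69) and under spike-in (0.83), quantile (0.98) or lowess (0.997) scaling.

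Notch4, a receptor of endothelial cells, was read by 3 probe sets, all under the floor. Its highest pair of signals was 4.36 in heterozygous and 14.4 in knockout cells (1449146_at), and the other probe sets did not exceed 1.69 on either array. No fold is given for Notch4.

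The sequence just upstream of the 2 receptor genes that hold a match to the early B cell factor motif given below is shown next. Ebf2, the deleted gene, encodes a factor of this family. Promoter sequences (250 bases before to 50 after the start, RefSeq, GRCm38.p6) were at hand for 7 of the 10 genes, in 8 windows, as Dll1 has 2 starts. The letters searched were CCCNNGGG, the core bound by early B cell factors, which reads the same on both strands, and TGGGAA, the core bound by RBPJ, on both strands; no matches of the 2 motifs overlapped. CCCNNGGG was found in 2 of the 8 windows, those of Notch3 (starting at position -54 from the start) and Notch2 (at -106), and in 13.7% of all 32851 promoter windows. TGGGAA was in 0 of the 8 and in 25.6% of all windows. No window was at hand for the target genes Hes1, Hey1 and Heyl, so the counts cover receptors and ligands only. The windows of Notch3 and Notch2 have 70.0% and 73.0% G and C. The Notch3 window is chr17:32166841-32167140 on the minus strand and the Notch2 window is chr3:98013288-98013587 on the plus strand, each printed 5′ to 3′ along its gene with the CCCNNGGG match in capitals. A match is a description of these letters only. The share over all windows was not matched for G and C content, and binding by Ebf2 was not tested.
Notch3: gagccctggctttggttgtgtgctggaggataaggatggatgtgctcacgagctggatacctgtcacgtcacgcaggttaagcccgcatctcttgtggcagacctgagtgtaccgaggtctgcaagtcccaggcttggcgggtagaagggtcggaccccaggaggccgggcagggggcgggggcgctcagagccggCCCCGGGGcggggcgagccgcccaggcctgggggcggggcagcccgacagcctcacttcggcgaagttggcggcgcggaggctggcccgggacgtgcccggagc
Notch2: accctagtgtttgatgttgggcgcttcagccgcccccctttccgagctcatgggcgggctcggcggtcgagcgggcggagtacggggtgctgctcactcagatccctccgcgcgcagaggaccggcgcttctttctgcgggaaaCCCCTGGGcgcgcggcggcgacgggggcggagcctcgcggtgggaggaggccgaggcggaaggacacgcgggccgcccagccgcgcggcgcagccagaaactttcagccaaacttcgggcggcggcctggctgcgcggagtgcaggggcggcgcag

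Among the 3 ligands, Jag1 alone was measured. Jag1, a Jagged-type ligand made by osteoblastic cells, read 469 in heterozygous and 680 in knockout cells by probe set 1434070_at, 1.45-fold higher (log2 ratio 0.54). Its other probe sets were dim. One of them (1421105_at) read 19.1 and 15.7, just above the floor in the heterozygote only and too low for a fold, and the other (1421106_at) read 13.1 and 19.0. The dim pair of Jag1 probe sets pointed opposite ways, and the value of Jag1 rests on the bright one.

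Jag2, the second Jagged ligand, read 12.4 and 9.72 by one probe set (1426430_at) and 10.9 and 1.44 by the other (1426431_at). Dll1, a Delta-like ligand, read 9.49 and 8.92 by its only probe set (1419204_at). All 3 probe sets of these ligands were below the floor on both arrays, so no difference in Jag2 or Dll1 was measurable at this signal.

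Of the target genes, Hes1 and Hey1 were measured and Heyl was not. Hes1, the repressor most widely read as a Notch target, had a signal of 170 in the heterozygote and 306 in the knockout (1418102_at). The knockout was 1.81-fold higher, a log2 ratio of 0.85, above that of 90.9% of measured genes with a fold. Hey1, a repressor of the Hairy-related family that Notch and BMP signals induce in osteoblasts, read 64.2 and 112 (1415999_at), 1.74-fold higher with a log2 ratio of 0.80. Hes1 and Hey1 each have 1 probe set, so neither ratio could be set against another one for the same gene, and both stayed under 2-fold.

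Heyl, the third Hairy-related gene on the list and one known from vascular smooth muscle, had 3 probe sets. They read 16.5 and 20.8 (1438886_at), 12.2 and 15.4 (1419302_at), and 3.78 and 12.5 (1419303_at). Each was higher on the knockout array as deposited, but every value of Heyl was under the floor of its array, and no fold is given.

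By probe set, 9 of the 20 were above the floor on at least 1 array. Of these, 8 had a fold and all 8 were higher in the knockout, with log2 ratios from 0.37 to 1.03. The other 1 (Jag1) was too dim for a fold. The 8 came from 6 genes. Among the 8, the Notch3 probe set 1421964_at was above the floor in the knockout only, so the floor rule allowed it no fold but a higher one. The 2 at or past 2-fold were both Notch3, and 1421964_at was 1 of them. Over all 20401 measured probe sets, 45.9% were higher in the knockout, 6.58% passed 2-fold upward and 3.61% passed it downward. These shares include 1352 probe sets too dim for a fold, which count as not higher. The 11 probe sets under the floor on both arrays read at most 16.5 in the heterozygote and 20.8 in the knockout.

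**Figure D2:**
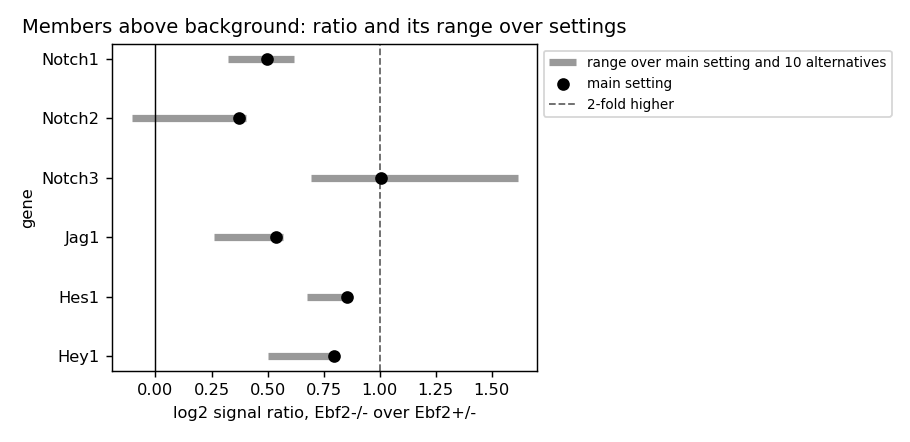
Log2 signal ratio of Ebf2-/- over Ebf2+/- (x axis) for the 6 genes above background (y axis); points are the values reported and grey bars span those values and the ones under 10 alternative settings. The bar of Notch3 crosses the 2-fold line at 1, the bar of Notch2 reaches -0.11, and those of Notch1, Jag1, Hes1 and Hey1 lie between 0 and 1.

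**Figure D3:**
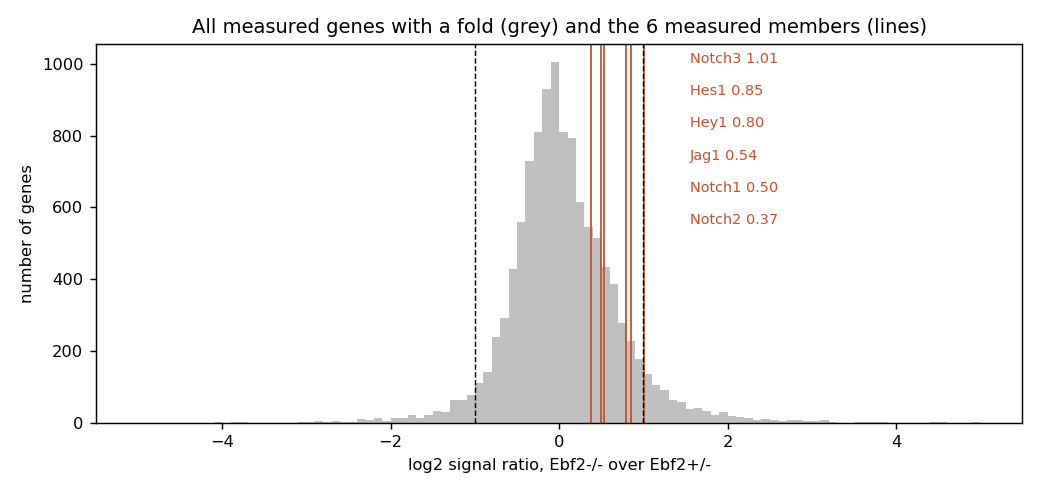
Histogram of the log2 ratio of Ebf2-/- over Ebf2+/- (x axis) for 11176 measured genes with a fold (y axis, number of genes per bin), with lines for the 6 Notch genes and dashed lines at 2-fold in each direction. The 6 lines lie to the right of the centre of the histogram, between 0.37 and 1.01, inside its right shoulder.

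The other genes of the pathway were divided in direction, as were all measured genes. Of 70 further genes with roles in Notch signalling, 64 had a probe set of their own and 52 were measured. Of the 52, 27 were brighter in the knockout, 23 in the heterozygote, and 2 were too dim for a fold. A higher knockout signal was seen for 46.9% of all measured genes. This split is therefore no result about the pathway, nor are the direction counts by role below. At least 2-fold higher were 3 (Mfap5, Mfap2 and Ncstn) and at least 2-fold lower was 1 (Rbpj), beside 6.3% and 3.46% of all measured genes, so these counts are no result about the pathway as a group. The median log2 ratio was 0.04.

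Among other ligands, the Delta-like ligand Dll3 was under the floor. Dll4, the Delta-like ligand of endothelium, read 20.2 and 9.50, above the floor in the heterozygote only and too low for a fold. The microfibril proteins Mfap5 and Mfap2, matrix proteins also known to bind Jagged ligands or Notch, were the 2 of 5 measured in this group that passed 2-fold. Mfap5 read 734 and 2913, 3.97-fold higher in the knockout, with 3.65-fold for its other probe set. Mfap2 read 133 and 442, 3.33-fold higher, and its other probe set gave at least 3.61-fold. The neuronal ligand Dner had 213 and 218.

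Of 9 other target genes and Hes or Hey family members that have their own probe set, Bhlhe40 and Hes6 alone were measured and 0 passed 2-fold. Bhlhe40, a basic helix-loop-helix repressor, read 239 and 317. Hes6, which opposes Hes1, read 140 and 102 by the probe set used and 19.3 and 57.0 by the other, so its 2 probe sets went opposite ways. Hes5, Hey2 and the feedback inhibitor Nrarp, classical Notch targets, were among the 7 under the floor on both arrays.

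Of 8 measured enzymes that place sugars on the Notch EGF repeats, 6 were higher in the knockout and 0 passed 2-fold. The O-glucosyltransferase Poglut1 read 363 and 340, and the O-fucosyltransferase Pofut1 read 217 and 237 by its brightest probe set. Dimmer probe sets of Pofut1 read 37.3 and 67.5 (1.81-fold higher in the knockout) and 22.2 and 35.5 (1.60-fold higher). The xylosyltransferase Gxylt1, at 69.7 and 136, was the closest to 2-fold. The fringe enzyme Lfng read 35.1 and 36.9.

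Of the 8 measured genes for receptor cleavage, 4 were higher and 4 lower. Ncstn, which encodes the gamma-secretase subunit nicastrin, read 59.7 and 237, 3.96-fold higher in the knockout, and its other probe set was under the floor on both arrays. The other measured subunits were under 2-fold. Psenen read 771 and 768, Aph1a 184 and 216 and Aph1b 138 and 131. Psen2 read 131 and 97.2, but its other probe set read 3.11 and 25.8, at least 1.45-fold higher in the knockout, and the log2 ratio of Psen2 was 0.53 without probe sets ending in _s_at, _x_at or _a_at and 1.31 as a mean over probe sets. The sheddase Adam10, which makes the ligand-induced cut, read 732 and 704 by its brightest probe set. Its next ones read 103 and 73.8 (1.40-fold lower) and 84.5 and 33.5 (2.52-fold lower), so the probe sets of Adam10 differ in size, and the mean log2 ratio, which takes in another probe set under the floor, was -0.83.

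Of 15 measured genes of the nuclear complex, 6 were higher in the knockout and 9 in the heterozygote (median log2 ratio -0.10). Rbpj, the DNA-binding partner of all Notch receptors, read 592 in heterozygous and 290 in knockout cells by its brightest probe set, 2.04-fold lower. Its other probe sets read 214 and 211, and 65.5 and 61.3. The probe sets of Rbpj thus disagreed, with 1 near 2-fold lower and 2 at almost equal signal. The co-activator Maml1 read 297 and 306 by one probe set and 29.4 and 82.3 by another, a 2.79-fold higher signal in the knockout. The co-repressor Ctbp1 read 864 and 937 and the deacetylase Hdac1 737 and 606.

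Of 14 measured genes for endocytosis and ubiquitin transfer, 7 were higher, 6 lower and 1 too dim for a fold, and 0 passed 2-fold. The ubiquitin ligase Mib1, which ligands need for their endocytosis, read 229 and 129, 1.77-fold lower in the knockout, and its second probe set was at least 1.53-fold lower. Its relative Mib2 read 87.0 and 144, 1.65-fold higher. Dtx3, with 1 probe set, was the closest to 2-fold in this list, at 59.7 and 115, 1.92-fold higher in the knockout. The signal for the ligase Nedd4 was 3724 and 4695 by its brightest probe set. Its other probe sets were lower in the knockout (2475 and 2393, and 925 and 668). Dvl1, a Wnt mediator that also binds Notch, read 395 and 325 by the probe set used and 165 and 206 by the other. For both genes the probe sets thus differed in direction.

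**Figure D4:**
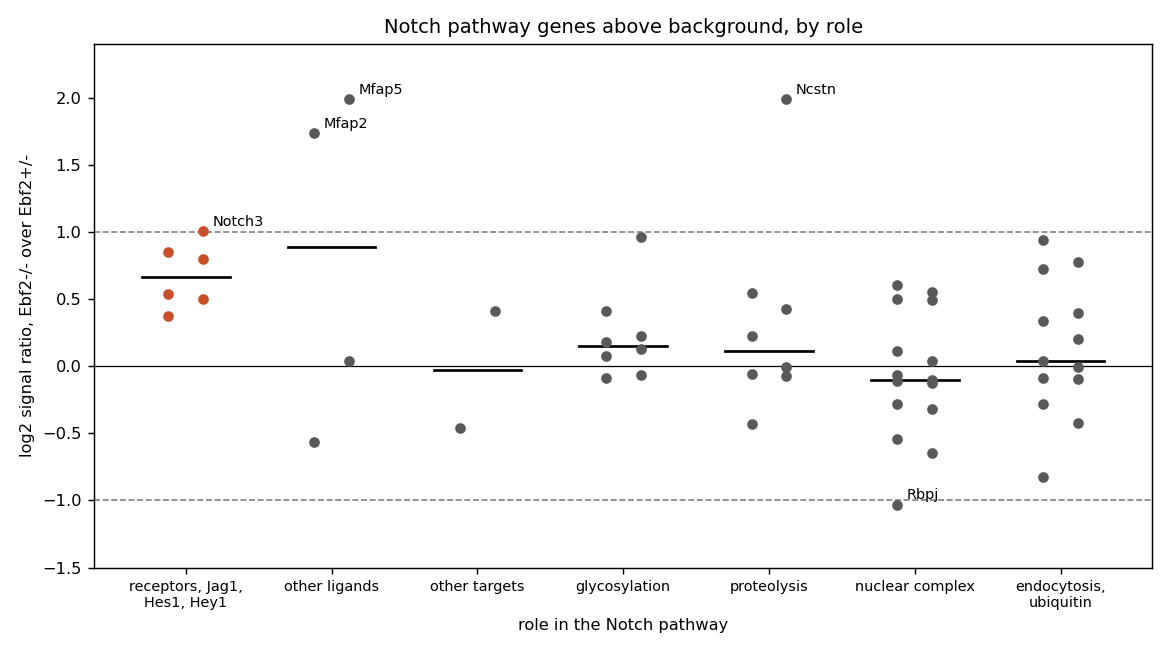
Log2 signal ratio of Ebf2-/- over Ebf2+/- (y axis) for Notch pathway genes with a fold, by role (x axis); each point is a gene, with genes above the floor on 1 array only at their lower bound, and black lines are medians. The 6 Notch receptor, Jag1, Hes1 and Hey1 points lie above 0, and past the dashed 2-fold lines are Notch3, Mfap5, Mfap2, Ncstn and Rbpj.

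Several features of the 2 arrays differed together with these values. Of the 7 osteoblast markers with a probe set of their own, 4 were above background: Col1a1 (2.33-fold), Alpl (2.04-fold) and Col1a2 (1.75-fold) were higher in the knockout, as were the Notch genes, and Sp7 was 1.57-fold lower. Ibsp, Dmp1 and Phex, genes of mature osteoblasts and osteocytes, were under the floor, and the list summed to 14204 and 27916. Of 12 macrophage and leukocyte markers, 12 were lower in the knockout by 2-fold or more, their summed signal being 7293 in the heterozygote against 1663. Of 11 chondrocyte markers, 5 passed 2-fold downward, Comp was 1.70-fold higher, Sox9 read 213 and 209, and Matn1 and Matn3 were under the floor; the list summed to 15108 and 5511, of which Col2a1 made up 8542 and 2592. All 5 measured Schwann cell and neural markers were lower, 4 of them past 2-fold (Ngfr 7.14-fold, Erbb3 at least 5.04-fold, Stmn2 3.25-fold and S100b 2.35-fold), with a sum of 1037 and 307. Of 11 endothelial markers, 8, among them Pecam1, Cdh5 and Tie1, were under the floor on both arrays. Of the other 3, Tek was at least 2.61-fold higher in the knockout (3.53 and 46.5), while Kdr was at least 1.42-fold and Egfl7 1.57-fold lower; the list summed to 130 and 112. Of 11 pericyte and smooth muscle markers, 5 were higher and 4 lower, and Myh11 and Des were under the floor. Abcc9 was at least 6.53-fold higher (6.46 and 116) and Kcnj8 at least 3.32-fold higher (2.98 and 59.3). Both were above the floor in the knockout only. Mcam was at least 2.17-fold lower and Acta2 was 1.48-fold higher. The pericyte and smooth muscle list summed to 17441 and 21823. The ratio of the 3′ to the 5′ control probe set of beta-actin, which grows as RNA degrades, was 1.97 for the heterozygote against 2.79 for the knockout. The part of these differences in the Notch values was not tested, and in bulk RNA fewer cells of a type cannot be told apart from less RNA per cell.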

How the data were processed

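The deposited intensity values are the authors' MAS5 signals, 1 linear intensity for each of 45101 probe sets on each of 2 arrays; the submitters' processing notes name MAS5, with no version. With 2% trimmed from each end, the deposited intensities averaged 100.0 on both arrays, so each had been scaled to 1 target, which hides a shift shared by most genes. Groups came from the genotype label. Gene symbols came from the platform annotation, and probe sets with several symbols or none were left out. Each gene was represented by the probe set of highest average log2 signal over both arrays.

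Log2 ratios are knockout over heterozygote, with signals under the floor raised to it; a gene above it on 1 array only has a lower bound, written "at least", and none where that signal was not above the other array's floor (609 genes). Detection calls were not used. With 1 array per group nothing was tested, and the number of arrays limits the precision. All 10 members are named with each probe set; from each list of pathway genes, those past 2-fold are named, or the brightest 2 where none was. Other pathway genes in the text, and the second probe sets given for them, were picked after their values were seen. The members and lists were chosen with earlier results of these data known. Calculations used Python 3.11.15, numpy 2.4.6, pandas 2.3.3 and statsmodels 0.14.6, and the steps were tested on simulated data. Alternative floors, a pseudocount, scalings and probe set choices were tried.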

Additional observations from a re-analysis of the deposited data

How the results depend on the processing

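The 10 alternatives gave 60 values for the 6 measured Notch genes, of which 59 were higher in the knockout. Of the 60, 58 lay within the probe set SD of 0.44 of the value reported. The exceptions were the means over probe sets for Notch2 (-0.11) and Notch3 (1.62). Many of the 60 could not move. The 6 genes were above both floors, so changing or dropping the floor left their ratios as reported. Hes1 and Hey1 have 1 probe set each, so the choice or mean of probe sets could not change them. These counts therefore do not measure stability. The median log2 ratio of the members ranged from 0.49 with spike-in scaling to 0.71 as a mean over probe sets; spike-in scaling moved the median of all genes to -0.17. The count of members at least 2-fold higher was 0 in place of 1 with quantile, lowess or spike-in scaling and with a pseudocount of 50, which shrinks every ratio by construction. The count of member probe sets at least 2-fold higher was then 0 in place of 2, and 1 with the higher floor or without probe sets ending in _s_at, _x_at or _a_at. With the array median as floor Heyl was measured as well (log2 ratio 0.33). Of the other pathway genes, 5 in place of 3 were at least 2-fold higher as a mean over probe sets, and Ncstn was then at 0.96. The count at least 2-fold lower was 0 with lowess or a pseudocount of 50, and 2 with no floor or spike-in scaling, in place of 1; Rbpj was at -0.38 as a mean over probe sets. No array could be left out. No paired analysis was possible because each genotype has 1 array and no result comes from a test.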
